A study of Mus musculus with 30 samples.

Results

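The genes described here are 9 protein-coding genes that carry out the buffering functions of astrocytes: Kcnj10 and Atp1b2 (potassium and sodium), Aqp4 (water), Slc1a2, Slc1a3 and Glul (glutamate), Gja1 and Gjb6 (coupling between cells) and Slc4a4 (bicarbonate). They were chosen by name for their function, and each was found once among the 30952 genes of the deposited table. Their levels were compared in spinal cord astrocytes of 3 groups of mice, with microglia of the same groups as a reference.

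The mice were C57BL/6, and by the study's methods those immunized were female young adults. Experimental autoimmune encephalomyelitis (EAE), a model of multiple sclerosis, was induced with MOG35-55, a peptide of a myelin protein, while naive mice were not immunized. Dosing of EAE mice began at a clinical score of around 1 and lasted 3 days, by oral gavage 2 times a day, with either 20% Captisol (EAE-vehicle) or GSK'547 at 50 mg/kg (EAE-RIPK1inh), an inhibitor of the kinase RIPK1. Astrocytes (GLAST+ CD11b- CD45- CD140a-) and microglia (CD11b+ CD45int CX3CR1+) were sorted from the spinal cord, and each cell type had 4 naive, 6 EAE-vehicle and 5 EAE-RIPK1inh libraries, 30 in total. The model is driven by peripheral immune cells that enter the spinal cord, and the antigen of the astrocyte gate, GLAST, is the product of 1 of the 9 genes, Slc1a3. The naive mice had no dosing in the labels, so that immunization, disease and vehicle differ together between naive and EAE-vehicle mice.

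Astrocytes clear the potassium and glutamate that active neurons release. Kir4.1 (Kcnj10) and the sodium pump, with its beta subunit Atp1b2, take up potassium, the transporters GLT-1 (Slc1a2) and GLAST (Slc1a3) take up glutamate on the sodium gradient, and glutamine synthetase (Glul) turns it into glutamine. Aquaporin-4 (Aqp4) passes water at the endfeet around blood vessels, connexin 43 (Gja1) and connexin 30 (Gjb6) join astrocytes into a network by gap junctions, and NBCe1 (Slc4a4) carries bicarbonate with sodium and so sets pH.

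The values are log2 FPKM (a count of fragments scaled to the length of the gene's exons and to the size of the library), which the authors quantile-normalized, so every library holds the same set of values and levels of different genes may be set side by side per length. Read depth is unknown. The number of genes above the values given to genes without signal ran from 6728 to 22981 in astrocyte libraries and from 8710 to 20398 in microglia libraries. It was lowest in EAE-vehicle library 1 (6728), and within their groups in naive library 2 (8815) and EAE-RIPK1inh library 5 (9898). Of the 10 astrocyte markers outside the 9 genes (among them Gfap, Aldh1l1 and Aldoc), none lacked signal in a whole astrocyte group, and their summed log2 FPKM was 75.3 to 94.6 in astrocyte libraries against 4.21 to 12.9 in microglia libraries. Microglia markers summed to 94.0 to 115 over 10 genes in microglia libraries and to 8.43 to 47.1 in astrocyte libraries. In sorted cells sequenced in bulk, fewer cells of a type and less RNA per cell cannot be told apart.

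Promoter sequence is shown for the 2 connexin genes, which fell in EAE, and for Glul, which did not pass the test there. The windows are the 250 bases before a RefSeq start (GRCm38.p6), read 5′ to 3′ on the gene's strand. Capitals mark a motif match on either strand.
Gja1, chr10:56377050-56377299, + strand: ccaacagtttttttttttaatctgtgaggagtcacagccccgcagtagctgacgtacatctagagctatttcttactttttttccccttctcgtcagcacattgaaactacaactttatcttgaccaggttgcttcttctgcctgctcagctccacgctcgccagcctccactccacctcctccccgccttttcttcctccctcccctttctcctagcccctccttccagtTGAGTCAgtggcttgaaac
Gjb6, chr14:57133612-57133861, - strand: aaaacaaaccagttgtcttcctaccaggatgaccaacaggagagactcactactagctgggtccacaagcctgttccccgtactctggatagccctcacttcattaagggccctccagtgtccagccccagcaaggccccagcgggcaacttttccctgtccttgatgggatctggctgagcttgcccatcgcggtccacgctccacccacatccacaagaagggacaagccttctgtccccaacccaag
Glul, chr1:153899679-153899928, + strand: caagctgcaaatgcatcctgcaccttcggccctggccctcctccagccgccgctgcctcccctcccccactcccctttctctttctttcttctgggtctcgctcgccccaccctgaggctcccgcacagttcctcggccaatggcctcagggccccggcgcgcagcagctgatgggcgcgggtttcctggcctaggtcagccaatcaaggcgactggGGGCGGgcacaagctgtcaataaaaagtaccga

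The motifs searched on both strands were the GC box, written GGGCGG, and the TATA box, written TATAAA. The AP-1 site was written TGANTCA, the STAT site TTCNNNGAA and the SOX site ACAATG. The Gja1 window held 1 AP-1 match, which 6.75% of the 32851 windows of the same length hold, and the Glul window held 1 GC box, which 32.7% hold. The Gjb6 window held none of the letters searched. The Gja1 and Gjb6 windows held 6 and 5 CpG dinucleotides, close to the median of 6 over all windows, and the Glul window held 15. The Glul window overlaps exons of 2 other annotated genes, and no exon overlaps the other windows.

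By the deposited annotation, whose gene positions for all 9 were identical to those of GENCODE M21 (GRCm38), the genes lie on 8 chromosomes and their exons add up to between 2674 bases (Gjb6) and 13133 bases (Slc1a2). Gja1 is at chr10:56377330-56402513 on the + strand, Gjb6 at chr14:57123303-57133611 on the - strand, and Atp1b2 at chr11:69599736-69605942 on the - strand. The glutamate genes are Slc1a2 at chr2:102658659-102790784 (+), Slc1a3 at chr15:8634124-8710764 (-) and Glul at chr1:153899944-153909723 (+). Kcnj10 is at chr1:172341210-172374085 (+), Slc4a4 at chr5:88886818-89239653 (+), and Aqp4 on chromosome 18. The deposited annotation marks Slc1a2, Slc1a3, Glul and Aqp4 as confounded, as it does 15717 of the 30952 genes, and the meaning of the mark is not given in the sources used here.

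In naive astrocytes all 9 genes were well above the values of genes without signal. Atp1b2 was the highest per length, at a log2 FPKM of 12.27 ± 0.62 (SD, n = 4), followed by Gja1 at 10.84 ± 0.19 and Gjb6 at 9.79 ± 0.39, and the ranges of these 3 did not overlap. Aqp4 (9.44 ± 1.20), Glul (8.77 ± 0.13) and Slc1a2 (8.69 ± 0.35) followed, and neither Aqp4 and Gjb6, Aqp4 and Glul, nor Glul and Slc1a2 kept the same order in all 4 libraries. Kcnj10 (8.02 ± 0.44) was below Slc1a2 and above Slc1a3 (7.33 ± 0.19) in 4 of 4 libraries. Slc4a4 was the lowest, at 6.82 ± 0.66, and its order against Slc1a3 held in 3 of 4 libraries.

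**Figure D1:**
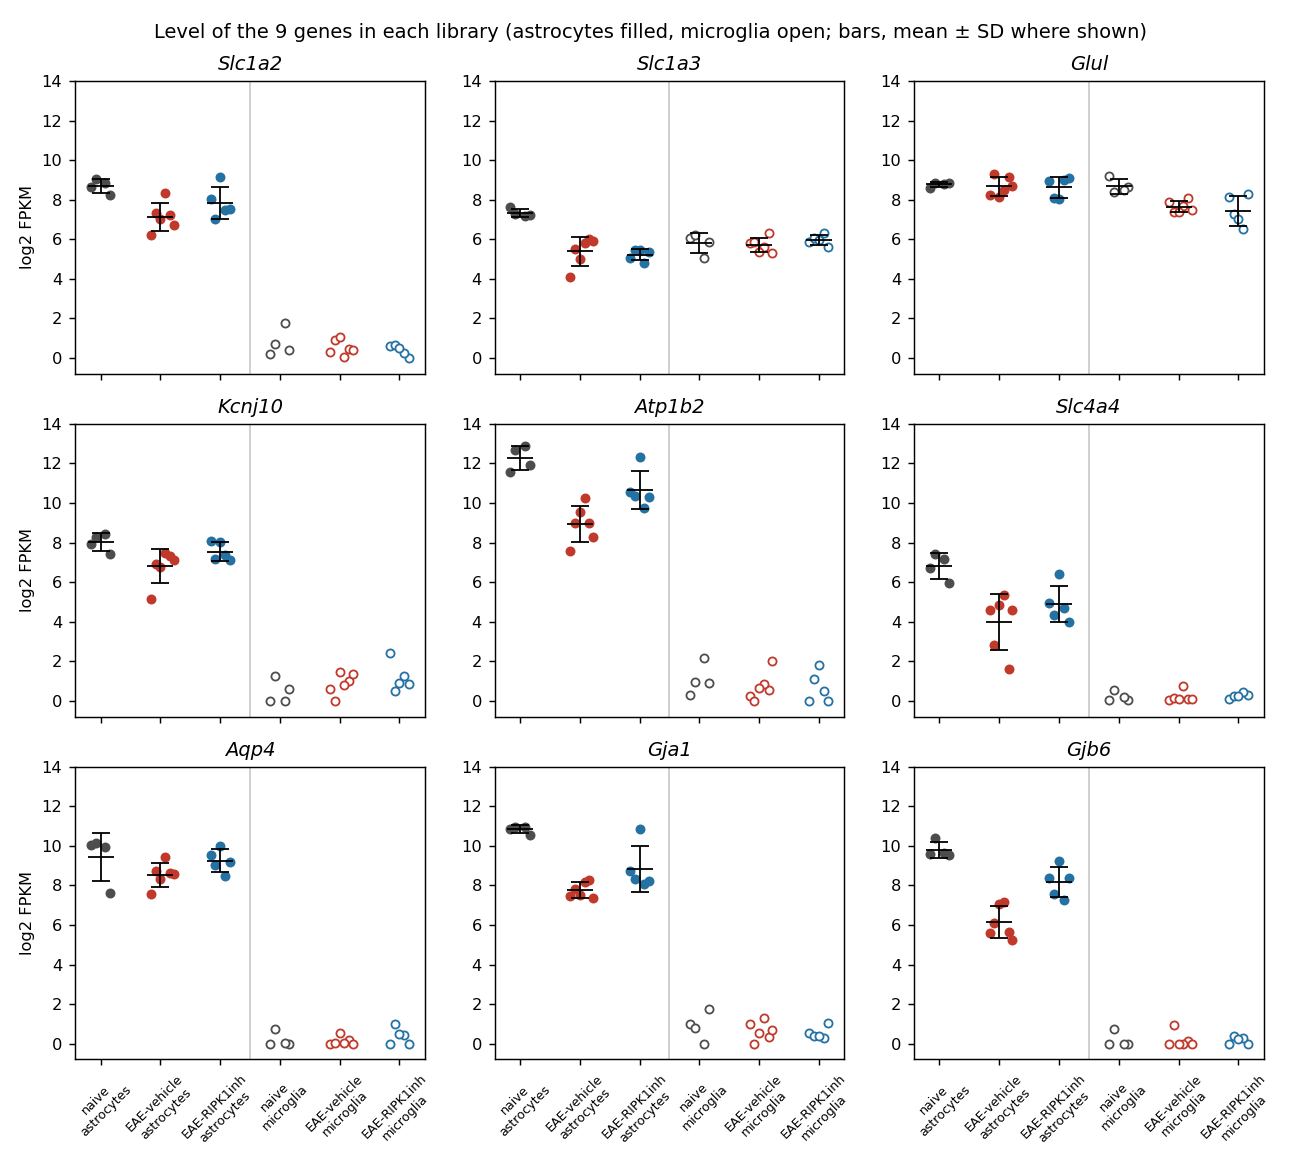
Log2 FPKM of each gene (vertical axis) in each library, by group (horizontal axis); filled points are astrocytes, open points microglia, and bars show mean ± SD, left out for microglia of genes with libraries at or near no signal. In 7 of the panels microglia are near 0, while Slc1a3 and Glul have a level in both cell types, and the 6 EAE-vehicle astrocyte libraries of Gja1, Gjb6 and Atp1b2 lie below all 4 naive ones.

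Microglia served as the reference, and 7 of the genes were nearly absent from them. Slc1a2, Kcnj10, Aqp4, Gja1, Gjb6, Atp1b2 and Slc4a4 stayed at or below a log2 FPKM of 2.40 in all 15 microglia libraries, with Gjb6 and Aqp4 at or near 0 in most. In naive mice 8 of 9 genes were called higher in astrocytes than in microglia by limma (fold over 1.5 and unadjusted p under 0.05), a call that 9.64% of all genes met. The 9th, Glul, was at 8.57, 8.85, 8.84 and 8.81 in naive astrocytes and at 9.22, 8.62, 8.39 and 8.46 in naive microglia. The difference of 0.09 log2 (95% interval -0.60 to 0.78) did not pass the test. No fold is given for the 7 genes, since each had microglia libraries without signal. Of the 11489 genes of mean level at least 1 over all libraries, 2232 were called higher in astrocytes in naive mice. In EAE-vehicle mice 2168 were and in EAE-RIPK1inh mice 2141, each time with 8 of the 9 genes.

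Slc1a3 was expressed in both cell types. It was higher in naive astrocytes by 1.53 log2 (adjusted p = 0.00220, limma), where the sort itself selected cells by its protein. In EAE-vehicle mice the difference was -0.32 (95% interval -0.90 to 0.26), and in EAE-RIPK1inh mice Slc1a3 was called lower in astrocytes, as 11.7% of all genes were, by -0.73 log2 (adjusted p = 0.136, limma). That call was lost without EAE-RIPK1inh astrocyte library 4 (-0.62) or microglia library 4 (-0.64), among genes of mean level at least 1, with 15 added before the logarithm (-0.55) and with centring on genes of mean level at least 1 (-0.48). The other 8 genes were called higher in astrocytes in both EAE-vehicle and EAE-RIPK1inh mice, where 10.0% of all genes were. Among them was Glul, by 1.02 log2 in EAE-vehicle mice (adjusted p = 0.0105) and by 1.19 in EAE-RIPK1inh mice (adjusted p = 0.00654).

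The comparison of EAE-vehicle with naive astrocytes asks how the RNA levels of these genes differ with immunization, disease and vehicle together. The connexins Gja1 and Gjb6 and the pump subunit Atp1b2 fell the most, between 8.41-fold and 12.6-fold, Slc4a4 fell 7.20-fold and Slc1a3 3.84-fold, while Glul differed by 1.07-fold and did not pass the test. Of the 9 genes, 7 were called lower and none higher, against 4.01% of all 30718 genes tested called lower and 2.69% called higher. At an adjusted p under 0.05 there were 4 (Gjb6, Gja1, Atp1b2 and Slc1a3), against 0.238% of all genes lower at that level. All 9 genes were among the 11243 of mean level at least 1 in astrocytes, where calls were more frequent. Of these 11243, 1016 were called lower and 754 higher, and in that fit 8 of the 9 genes were called lower. The median log2 fold change was -1.94 over the 9 genes and 0.03 over all genes. In 5 genes (Slc1a3, Gja1, Gjb6, Atp1b2 and Slc4a4) every EAE-vehicle library was below every naive library, as it was for 1.28% of all genes. For these 5 the exact two-sided permutation test gave p = 0.00476, the smallest that 6 against 4 libraries allow.

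Of the potassium and sodium genes, Atp1b2 stood at a log2 FPKM of 11.57, 11.93, 12.70 and 12.87 in naive astrocytes and ran from 7.59 to 10.23 with a median of 8.97 in EAE-vehicle astrocytes. The groups did not overlap, and the highest EAE-vehicle library (4) was more than 1 log2 unit below the lowest naive library (1). Atp1b2 was lower by 3.33 ± 0.51 (SE; adjusted p = 0.00602, limma). Kcnj10, the main inward rectifier of astrocytes, was at 7.93, 7.43, 8.27 and 8.43 in naive libraries and from 5.12 to 7.49 (median 7.04) in EAE-vehicle libraries. Library 4 of EAE-vehicle, at 7.49, lay above naive library 2, so the groups overlapped, and EAE-vehicle library 1 was the lowest by far. Kcnj10 was called lower by 1.22 ± 0.42 log2, but its adjusted p was 0.373 (exact permutation p = 0.0190).

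Aqp4, the water channel, was at 10.06, 7.64, 10.13 and 9.95 in naive libraries and from 7.55 to 9.43 (median 8.61) in EAE-vehicle libraries. Naive libraries 1, 3 and 4 were above all EAE-vehicle libraries, and naive library 2 was below 5 of the 6. The difference of -0.90 log2 (95% interval -1.91 to 0.11, exact permutation p = 0.162) did not pass the test. Without naive library 2, the naive library with the fewest genes detected, it was -1.50 and was called, and without EAE-vehicle library 4 it was -1.08 and was called.

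Of the glutamate genes, Slc1a3 was at 7.61, 7.25, 7.27 and 7.18 in naive astrocytes and from 4.11 to 6.01 (median 5.66) in EAE-vehicle astrocytes. All 6 EAE-vehicle libraries lay more than 1 log2 unit below the naive ones, and the difference was -1.94 ± 0.38 (adjusted p = 0.0320, limma). Slc1a2 was at 8.64, 8.22, 9.04 and 8.85 in naive libraries and from 6.20 to 8.33 (median 7.14) in EAE-vehicle libraries, where library 4 alone reached the naive range. It was called lower by 1.55 ± 0.43, with an adjusted p of 0.167 (exact permutation p = 0.0190). Glul, at 8.57 to 8.85 in naive libraries, ran from 8.13 to 9.31 (median 8.59) in EAE-vehicle libraries, on both sides of the naive values. Its difference was -0.10 log2 (95% interval -0.71 to 0.50, exact permutation p = 0.671), and its sign turned in some alternatives.

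Of the coupling genes, Gja1 was at 10.85, 10.57, 10.97 and 10.97 in naive astrocytes and from 7.38 to 8.27 (median 7.67) in EAE-vehicle astrocytes. The gap between the groups, from 8.27 to 10.57, was wider than the range of either. Gja1 was lower by 3.07 ± 0.43 log2 (adjusted p = 0.00283, limma). Gjb6 was at 9.60, 9.56, 10.38 and 9.63 in naive libraries and from 5.22 to 7.16 (median 5.87) in EAE-vehicle libraries, again with no overlap. It had the largest difference of the 9 genes, -3.66 ± 0.45 (adjusted p = 6.5e-04, limma). By mean level per length Gjb6 was 3rd of the 9 genes in naive libraries and 7th in EAE-vehicle libraries.

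Slc4a4, the bicarbonate cotransporter, was at 6.73, 5.93, 7.43 and 7.18 in naive libraries and from 1.62 to 5.33 (median 4.59) in EAE-vehicle libraries. The groups did not overlap, but the EAE-vehicle libraries were spread over more than 3 log2 units, with libraries 2 and 3 the lowest. Slc4a4 was called lower by 2.85 ± 0.70 and did not pass an adjusted p of 0.05.

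**Figure D2:**
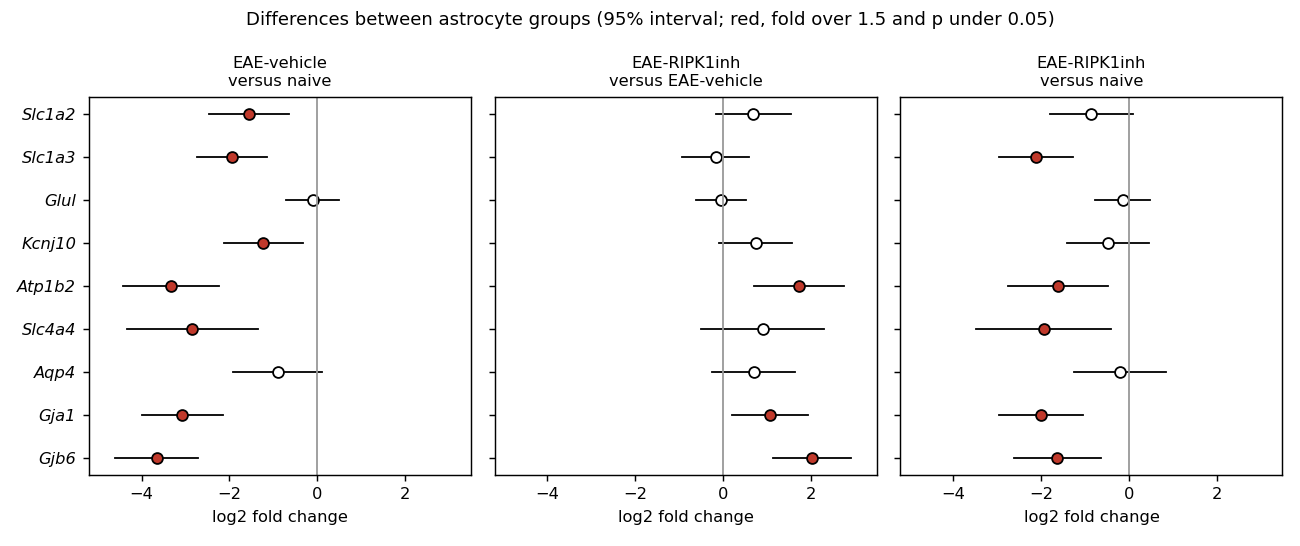
Log2 fold change of each gene (points) with its 95% interval (lines) from limma in the 3 comparisons of astrocyte groups; red points passed a fold over 1.5 and p under 0.05. In the EAE-vehicle versus naive panel 7 of 9 points are red and below 0, in the EAE-RIPK1inh versus EAE-vehicle panel 3 are red and above 0, and in the EAE-RIPK1inh versus naive panel 5 are red and below 0.

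Other cell types moved with the same comparison. In EAE-vehicle against naive astrocytes 5 of 10 microglia markers were called higher, 6 of 8 tested for monocytes and neutrophils, 6 of 9 for T cells, 4 of 7 for oligodendrocytes and 1 of 6 for neurons. Of the others, 1 of 5 pericyte and 1 of 4 fibroblast markers were called lower, and none of 4 oligodendrocyte precursor, 6 endothelial, 6 ependymal and 5 erythrocyte markers was called. The summed log2 FPKM over the microglia markers was 8.43 to 26.9 in naive, 27.5 to 47.1 in EAE-vehicle and 27.9 to 35.3 in EAE-RIPK1inh astrocytes. For T cells these sums were 1.34 to 7.80, 7.58 to 51.8 and 6.68 to 49.1, for monocytes and neutrophils 0.81 to 11.9, 23.3 to 45.7 and 17.9 to 55.9, and for oligodendrocytes 43.3 to 51.7, 44.7 to 69.4 and 54.7 to 64.4. Aif1 and Itgam (microglia), Cd3d, Cd2 and Lck (T cells) and Cd177 (neutrophils) had no signal in any naive astrocyte library, and Ly6g had none in any astrocyte library. The part of these cells in the lower levels of the 9 genes was not tested.

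The 10 other astrocyte markers did not move as one. Their summed log2 FPKM was 88.0 to 94.6 in naive, 75.3 to 85.8 in EAE-vehicle and 81.6 to 92.9 in EAE-RIPK1inh astrocytes. In EAE-vehicle against naive astrocytes 5 were called lower (Aldoc, Fgfr3, Ntsr2, Slc39a12 and Cldn10) and 1 higher (Gfap, a filament protein, by 2.47 log2), and the median was -0.90. Of 10 genes known from reactive astrocytes, a list that shares Gfap with the first and Lcn2 with the neutrophil list, 8 were called higher, with a median of 3.57. When each library was centred on the 10 astrocyte markers, Gja1, Gjb6 and Atp1b2 were still called lower, at -1.71, -2.30 and -1.97, and Slc1a2 (-0.19), Slc1a3 (-0.58), Kcnj10 (0.14) and Slc4a4 (-1.48) were not called. That centring moved the median of all genes to 1.39, and Glul was then called higher (1.26), below that median. Of all 30718 genes 20060 were then called higher and 152 lower.

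In microglia, 1 of the 9 genes was called between EAE-vehicle and naive mice, where 12.0% of all 28958 genes tested were. Glul was at 9.22, 8.62, 8.39 and 8.46 in naive microglia and from 7.36 to 8.10 (median 7.57) in EAE-vehicle microglia, so that the groups did not overlap, as for 2.33% of all genes in that direction. It was called lower, as 5.86% of all genes were, by 1.03 ± 0.32 log2, with an adjusted p of 0.102 (limma; exact permutation p = 0.00476, the smallest possible). Slc1a3, the other gene with a level in microglia, was at 6.04, 5.85, 6.23 and 5.07 in naive microglia and from 5.28 to 6.32 (median 5.72) in EAE-vehicle microglia. The groups overlapped throughout, and the difference was -0.09 (95% interval -0.63 to 0.45). Between EAE-RIPK1inh and EAE-vehicle microglia none of the 9 genes was called or had an unadjusted p under 0.05 by limma, where 1.76% of all genes were called and 2.87% had such a p.

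The test of the difference between the cell types themselves, an interaction term over all 30 libraries, was called for 8 of the 9 genes, against 8.68% of all genes, and was past an adjusted p of 0.05 for 4, against 0.982%. The 4 became 2 without naive astrocyte library 3 or 4, naive microglia library 2, or EAE-vehicle microglia library 1, 2 or 4, and ran from 2 to 5 over all single libraries left out. The EAE effect in astrocytes minus that in microglia was -3.66 for Gjb6 (adjusted p = 4.8e-04, limma), -2.85 for Gja1 (adjusted p = 0.0112), -2.97 for Atp1b2 (adjusted p = 0.0452) and -1.85 for Slc1a3 (adjusted p = 0.0377). Of these only Slc1a3 had a level in naive microglia from which it could have fallen. Among all 9 genes, Glul was the only other with such a level. For the rest the term largely restates the difference in astrocytes, since they were nearly absent from microglia in every group. For Glul the sign was opposite, 0.92 (adjusted p = 0.525, limma). Its call was lost in 12 of 20 cases when single libraries of naive or EAE-vehicle astrocytes or microglia were left out. These 12 had values between 0.74 and 0.95, and all 20 ran from 0.74 to 1.03. The call of Glul was also lost with quality weights (0.87). Slc4a4 (-2.85, adjusted p = 0.0629, limma), Kcnj10 (-1.63, adjusted p = 0.295) and Slc1a2 (-1.30, adjusted p = 0.433) were called without passing the adjustment. The call of Slc1a2 was lost among genes of mean level at least 1, with centring on such genes (-1.11), and without naive astrocyte library 3 (-1.19), EAE-vehicle astrocyte library 1 (-1.12) or naive microglia library 1 (-1.12) or 2 (-1.18). Aqp4 (-0.83, adjusted p = 0.724, limma) was not called. Of the 11489 genes of mean level at least 1 over all libraries, the interaction was called for 1936, with 7 of the 9 genes.

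The comparison of EAE-RIPK1inh with EAE-vehicle astrocytes asks whether inhibition of RIPK1 alters these levels during disease. Gjb6, Atp1b2 and Gja1, the 3 genes that had fallen the most, were called higher with the inhibitor, by 4.08-fold, 3.31-fold and 2.09-fold, and the other 6 did not pass the test. Of all genes 3.02% were called, 1.84% higher and 1.18% lower. Of the 11243 genes of mean level at least 1, 383 were called higher and 297 lower, with 3 of the 9 genes higher. No gene of the 30718 reached an adjusted p under 0.05 by limma, where 998 (3.25%) had an unadjusted p under 0.05, and the adjusted p of the 3 genes was 0.840. The median log2 fold change was 0.75 over the 9 genes and -0.03 over all genes. This comparison shares its 6 EAE-vehicle libraries with the first, so the direction of both depends on the same libraries.

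Gjb6 was at 8.37, 8.38, 7.58, 7.26 and 9.23 in EAE-RIPK1inh astrocytes. All 5 were above the highest of the 6 EAE-vehicle libraries (7.16), if narrowly for library 4, and 0.107% of all genes were higher in every library in this way. The difference was 2.03 ± 0.42 log2 (exact permutation p = 0.00649). Atp1b2 was at 10.57, 10.31, 10.38, 9.73 and 12.32, and only library 4 was below the highest EAE-vehicle library (10.23). It was higher by 1.73 ± 0.48 (exact permutation p = 0.00866).

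Gja1 was at 8.71, 8.24, 8.31, 8.06 and 10.85 in EAE-RIPK1inh astrocytes. Library 5 reached the level of naive astrocytes, while libraries 2 and 4 were below the highest EAE-vehicle library (8.27) and libraries 1 and 3 less than 1 log2 unit above it. The difference was 1.07 ± 0.40 (exact permutation p = 0.0173), and without library 5 it was 0.56 and was not called, the fold being under 1.5. Library 5 had the fewest genes detected of its group and was the highest of the 5 for 6 of the 9 genes. Without it Gjb6 (1.76) and Atp1b2 (1.31) were still called. Without EAE-vehicle library 4, the highest of its group for 6 of the 9 genes, 5 genes were called, with Slc1a2 (0.93) and Kcnj10 (0.89) besides the 3.

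**Figure D3:**
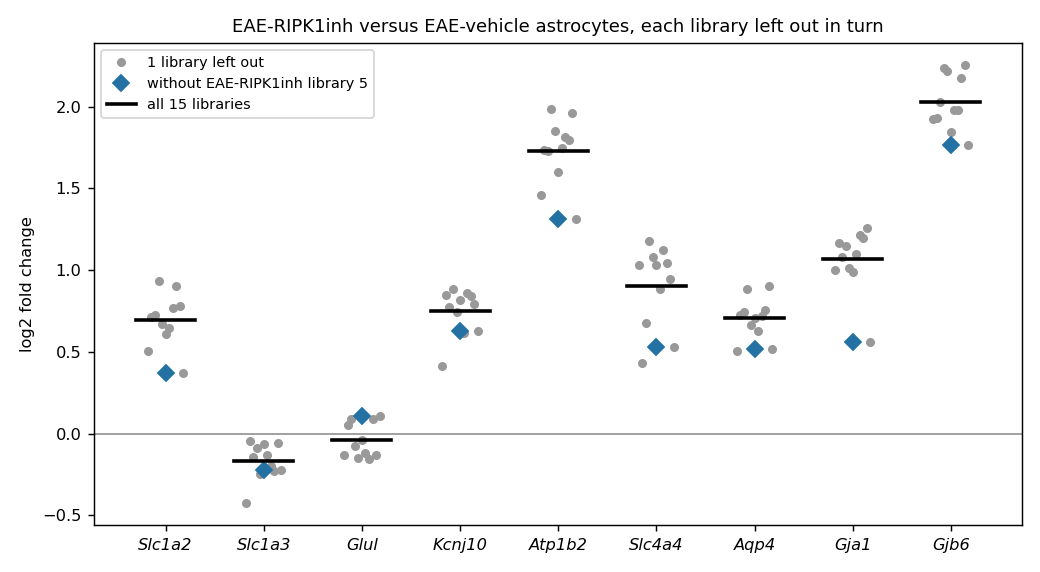
Log2 fold change of EAE-RIPK1inh against EAE-vehicle astrocytes for each gene; black lines use all 15 astrocyte libraries, grey points leave out 1 EAE-RIPK1inh or EAE-vehicle library each, and blue diamonds leave out EAE-RIPK1inh library 5. Gjb6 stays between 1.76 and 2.26 and Atp1b2 between 1.31 and 1.98, while Gja1 drops to 0.56 without that library.

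The remaining 6 genes did not pass the test with the inhibitor. Slc1a2 was at 8.03, 7.52, 7.00, 7.47 and 9.13 (difference 0.69, 95% interval -0.16 to 1.54), Kcnj10 at 8.06, 7.10, 7.17, 7.37 and 8.01 (0.75, -0.09 to 1.58) and Aqp4 at 9.56, 9.18, 9.04, 8.46 and 10.00 (0.70, -0.24 to 1.65). Slc4a4 was at 4.96, 4.00, 4.32, 4.71 and 6.38 (0.91, -0.49 to 2.30). For all 4 the means were higher than in EAE-vehicle libraries and the intervals include both 0 and differences over 1.5-fold. Slc1a3 was at 5.07, 5.33, 5.47, 4.79 and 5.45, within the EAE-vehicle range (-0.17, -0.92 to 0.59). Glul was at 8.92, 9.08, 8.11, 8.99 and 8.02 and also overlapped with EAE-vehicle libraries (-0.04, -0.61 to 0.53).

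Markers of other cell types were not called in this comparison for microglia, monocytes and neutrophils, T cells and oligodendrocytes, whose medians were -0.62, -0.89, -0.70 and -0.37 log2. One ependymal and 1 neuronal marker were called lower, and none for oligodendrocyte precursors, endothelial cells, pericytes, fibroblasts and erythrocytes. Of the reactive astrocyte list 1 was called lower, with a median of -0.77. Of the 10 astrocyte markers 3 were called higher (Fgfr3, Ntsr2 and Cldn10), with a median of 0.53. Centred on these 10 markers, which moved the median of all genes to -0.84, Gja1 was no longer called (0.25), Glul was called lower (-0.86) and the median of the 9 genes was -0.07. Under that centring Gjb6 (1.22) and Atp1b2 (0.91) were still called higher, where 46 of all 30718 genes were called higher and 12778 lower. The part of the cell makeup in the higher levels was not tested.

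Against naive astrocytes, EAE-RIPK1inh astrocytes had 5 of the 9 genes called lower and none higher, where 2.64% of all genes were called lower and 1.98% higher. Of the 11243 genes of mean level at least 1, 584 were called lower and 507 higher, again with 5 of the 9 genes lower. The 5 were Slc1a3 (-2.11 ± 0.39, adjusted p = 0.0553 by limma), Gja1 (-2.01 ± 0.45), Slc4a4 (-1.94 ± 0.73), Gjb6 (-1.63 ± 0.46) and Atp1b2 (-1.60 ± 0.53), and none was past an adjusted p of 0.05, as 0.00651% of all genes were in that direction. With quality weights 5 of the 9 genes passed that level, and 2 did among genes of mean level at least 1. More of all genes passed it then too. In either direction 40 of 30718 did as deposited and 104 of 11243 at mean level at least 1, and the number also rose with quality weights. Slc1a3 and Gjb6 did not overlap with the naive libraries (exact permutation p = 0.00794, the smallest that 5 against 4 libraries allow, and 0.0159), and 0.902% of all genes were lower in every library. The call of Slc4a4 was lost without naive library 3 (-1.74). When the library with the fewest genes detected was left out of each group, an alternative added after the data were seen, 8 genes were called lower and Glul was not. The 2.64% above belongs to the fit of all libraries, not to that alternative. With all libraries the median was -1.60 over the 9 genes and -0.01 over all genes.

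Averaged over the 9 genes, the log2 FPKM was 9.11 ± 0.38 (n = 4) in naive, 7.04 ± 0.50 (n = 6) in EAE-vehicle and 7.89 ± 0.57 (n = 5) in EAE-RIPK1inh libraries.

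**Figure D4:**
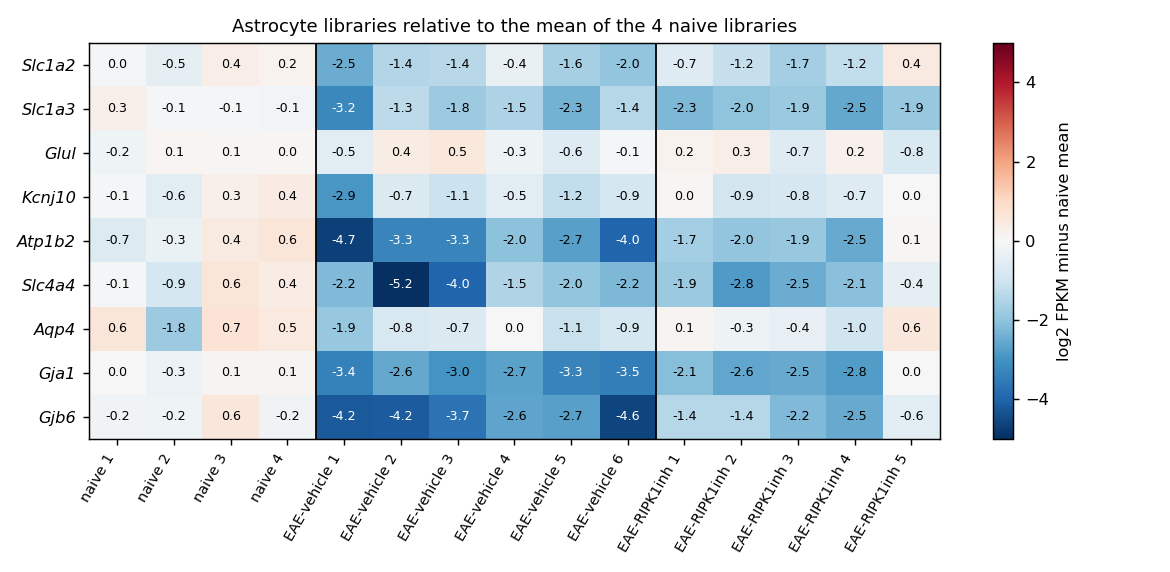
Log2 FPKM of each gene (rows) in each astrocyte library (columns) minus the mean of the 4 naive libraries; blue is lower, red is higher. On average over the 6 EAE-vehicle libraries the rows of Gjb6, Gja1 and Atp1b2 are the darkest blue, while in libraries 2 and 3 the Slc4a4 row is the darkest. The Glul row is pale throughout, and EAE-RIPK1inh library 5 is near the naive mean for most genes, apart from Slc1a3.

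Libraries of 1 group differed from each other in a shared way across the 9 genes. In naive mice library 2 was the lowest for 6 genes, in EAE-vehicle mice library 1 was the lowest for 5 and library 4 the highest for 6, and in EAE-RIPK1inh mice library 4 was the lowest for 5 and library 5 the highest for 6. Naive library 2, EAE-vehicle library 1 and EAE-RIPK1inh library 5 were also those with the fewest genes detected in their groups. Without these 3 libraries, 8 of the 9 genes were called lower in EAE-vehicle than in naive astrocytes, with Aqp4 (-1.30) added, and 2 were called higher in EAE-RIPK1inh than in EAE-vehicle astrocytes, with Gja1 (0.50) lost. The shares of all genes called that are given above belong to the fits of all libraries, not to this alternative.

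Other genes of the same functions, a list of 56 taken from background knowledge of which 55 were in the table, were read beside the 9. In EAE-vehicle against naive astrocytes 18 were called lower and none higher, where 4.01% of all genes were called lower, and their median was -0.73. By function, 4 of 10 potassium and sodium genes, 5 of 15 genes of water, perivascular anchoring and cell volume, 7 of 13 genes of glutamate, GABA and glycine, 1 of 8 coupling genes and 1 of 9 genes of pH and bicarbonate were called lower. Of these 3 had an adjusted p under 0.05 by limma, 7 without naive library 2, and 1 without naive library 1, 3 or 4 or EAE-vehicle library 2 or 6. Among them were the amino acid exchanger Slc7a10 at -3.35 (0.0179) and the glycine transporter Slc6a9 at -3.24 (0.0390). Slc7a10 was at 10.34, 8.69, 10.92 and 10.42 in naive libraries and from 5.86 to 7.71 in EAE-vehicle libraries, with no overlap. The coupling list, which holds other connexins, pannexins and junction proteins, had a median of -0.22, far from the values of Gja1 and Gjb6, and its called gene was Ocln, a tight junction protein with a mean level of 0.69.

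With the inhibitor, 8 of the 55 were called higher than in EAE-vehicle astrocytes, as 1.84% of all genes were, and none lower, all at an adjusted p of 0.840 (limma). Among the largest were the carbonic anhydrase Car14 (3.06 log2), the glutamine transporter Slc38a3 (2.55) and the neutral amino acid transporter Slc1a4 (2.42). Of the 8, 5 belong to the glutamate, GABA and glycine list. The count ran from 5 to 10 when single libraries were left out. Against naive astrocytes 6 were called lower, as 2.64% of all genes were, with Dag1 (-2.44), Gpr37l1 (-1.66), Slc7a10 (-1.64) and Kcnk1 (-1.46) the largest of those with a mean level of at least 1, and 1 higher, the lactate transporter Slc16a3 (1.92), none at an adjusted p under 0.05. The 7 called in either direction became 2 without naive library 3, 4 without naive library 4, 3 without EAE-RIPK1inh library 2 or 4, and 12 without naive library 2.

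Among 1774 protein-coding genes with a mean log2 FPKM of at least 5 in astrocytes, the profile most like the mean profile of the 9 genes over the 15 libraries was that of Apoe, with a root mean square difference of 0.33 log2 after each gene was centred on its own mean. Cd81 (0.34), Tspan7 (0.34), Syt11 (0.35) and Lrp1 (0.35) followed. Of the 9 genes themselves, which make up the mean, Slc1a2 was the nearest to it (0.31) and Glul the farthest (1.01). Apoe was at 13.71, 13.01, 14.48 and 14.48 in naive astrocytes, from 11.48 to 12.10 in EAE-vehicle astrocytes and at 12.23, 12.10, 11.93, 12.23 and 13.93 in EAE-RIPK1inh astrocytes. Library 5 of EAE-RIPK1inh was the highest of its group, as it was in the mean profile by which Apoe was picked. The likeness was sought in astrocytes only. In EAE-vehicle against naive microglia Apoe was higher by 2.94 log2 (adjusted p = 0.00173, limma). Cd81 (-1.12), Tspan7 (-1.14), Syt11 (-0.66) and Lrp1 (-0.74) were lower there.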

How the data were processed

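Spinal cord astrocytes and microglia were sorted (30 libraries), and poly(A) RNA was made into cDNA by a SMART-type method and cut by Tn5. The authors used OmicSoft Array Studio and deposited log2 FPKM values, quantile-normalized over the 30 libraries. The aligner, annotation release and offset are not given in the sources used here, and no counts or depths were used.

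Groups were taken from the labels, and the 9 genes by name and protein-coding class. They, the other lists and the tests were chosen with earlier results of these data known. Groups were compared with limma 3.58.1 in R 4.3.3 (lmFit, eBayes with trend), with 1 fit for the astrocyte groups and another for the microglia groups (30718 and 28958 genes) and all 6 groups in 1 fit for the cell types (30952 genes). Constant genes were left out. A call is a fold over 1.5 and an unadjusted p under 0.05, and adjusted values are Benjamini-Hochberg over all genes. Single genes also had an exact two-sided permutation test of the difference in means (scipy 1.17.1). By the study's description the replicates of a group are mice, and the labels do not say which libraries of the 2 cell types share one. The fit was tested on simulated data. All 9 genes are named, other genes of their functions where the adjusted p is under 0.05, or else the 4 largest called in each direction with a mean level of at least 1. Some genes that this rule picks are not reported here. Alternatives were other scalings, filters, offsets, weights, a replicate block and each library left out.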

Additional observations from a re-analysis of the deposited data

Results flagged for a closer look

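In 10 of 54 sets of libraries (9 genes in 6 groups) the highest or lowest library stood apart from the others by Dixon's criterion, where chance gives about 1 in 20. In astrocytes these were Glul in naive library 1 (8.57, nearest 8.81), Kcnj10 in EAE-vehicle library 1 (5.12, nearest 6.77), Aqp4 in naive library 2 (7.64, nearest 9.95), Gja1 in EAE-RIPK1inh library 5 (10.85, nearest 8.71) and Gjb6 in naive library 3 (10.38, nearest 9.63). In microglia they were Aqp4 in naive library 3 (0.72), Gjb6 in naive library 3 (0.75), Gja1 in EAE-RIPK1inh library 2 (1.05), Gjb6 in EAE-vehicle library 3 (0.96) and Slc4a4 in EAE-vehicle library 4 (0.77), all of them levels near no signal.

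The EAE effect differed between astrocytes and microglia, by the interaction term of limma at an adjusted p under 0.05, for Gjb6 (-3.66), Atp1b2 (-2.97), Gja1 (-2.85) and Slc1a3 (-1.85), each lower in astrocytes. The number of genes past that level was 2 to 5 when single libraries were left out. For the first 3 the level in microglia was near no signal in every group.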

How the results depend on the processing

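The depth of the libraries is unknown and the values are quantile-normalized, so a shift shared by most genes cannot be seen, and centring each library on its median changed nothing. No alternative reversed Gja1, Gjb6, Atp1b2, Slc4a4 or Slc1a3 between astrocyte groups. Centring on the 10 astrocyte markers gave 4 of the 9 genes called in EAE-vehicle against naive astrocytes, 3 lower and 1 higher. Of all 30718 genes 152 were then called lower and 20060 higher. The median of the 9 genes was -0.58, with reversed values for Glul (1.26), Kcnj10 (0.14) and Aqp4 (0.46). In EAE-RIPK1inh against EAE-vehicle astrocytes this centring gave a median of -0.067, with Slc1a2 at -0.12, Kcnj10 at -0.067 and Aqp4 at -0.11. Against naive astrocytes it gave -1.06, with Glul at 0.41, Kcnj10 at 0.074 and Aqp4 at 0.35. Gjb6 (1.22) and Atp1b2 (0.91) were still called higher with the inhibitor against vehicle under that centring.

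Glul lay near 0 and also turned to 0.036 with the replicate block, 0.014 without the library with the fewest genes detected of each group and 0.018 when centred on genes of mean level at least 1 (EAE-vehicle against naive), to 0.021 with quality weights and 0.022 without those libraries (inhibitor against vehicle), and to 0.036 without them (inhibitor against naive). With single libraries left out Glul ran from -0.23 to 0.0052, from -0.16 to 0.11 and from -0.26 to 0.00885 in these comparisons, and from -0.00081 to 0.28 between naive astrocytes and microglia. Aqp4 ran from -0.80 to 0.033 (inhibitor against naive). Slc1a3 in EAE-vehicle against naive microglia ran from -0.33 to 0.052 and was 0.046 with the block. Glul with the inhibitor against vehicle was called lower (-0.86) under the same centring on markers. Of the 9 genes, 5 (quality weights), 2 (mean level at least 1) and 2 (without the libraries with the fewest genes detected) had an adjusted p under 0.05 with the inhibitor against naive, where none had as deposited. Other genes called numbered 3 (inhibitor against vehicle) and 20 (inhibitor against naive) with quality weights, and 19 (inhibitor against naive) without the libraries with the fewest genes detected, where 8 of the 9 genes were called.

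With single libraries left out, 7 to 8 of the 9 genes were called in EAE-vehicle against naive astrocytes (median -2.06 to -1.68), 2 to 5 with the inhibitor against vehicle (0.51 to 0.93) and 4 to 6 against naive (-1.90 to -1.37). The other genes of the same functions called numbered 16 to 19, 5 to 10 and 2 to 12.

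All genes called numbered 2060, 927 and 1421 in the 3 comparisons, against 3698, 1368 and 3152 with quality weights and 1561, 454 and 926 with 15 added before the logarithm. Centred on genes of mean level at least 1, which moved the median of all genes to 0.14, 1062 were called higher and 1012 lower in EAE-vehicle astrocytes, where 827 and 1233 were as deposited. In EAE-RIPK1inh against naive astrocytes these splits were 762 and 656 against 609 and 812. That centring and leaving out the libraries with the fewest genes detected were chosen after seeing the data. Centred on the 10 markers 20060 were called higher and 152 lower, 46 and 12778, and 3923 and 198 in the 3 comparisons. At an adjusted p under 0.05 there were 178, 0 and 40, against 726, 0 and 327 with quality weights and 445, 0 and 104 among genes of mean level at least 1. Correlations of deviations between same-numbered libraries of astrocyte groups were -0.16 to 0.08. Between same-numbered astrocyte and microglia libraries they were -0.035 to 0.094 (naive), -0.014 to 0.125 (EAE-vehicle) and 0.0023 to 0.045 (EAE-RIPK1inh). The microglia library of the same number correlated best for 1 of 4, 3 of 6 and 3 of 5 astrocyte libraries. Whether equal numbers mark 1 mouse is not known, and the main fits of both cell types treat the libraries as independent. With the replicate block 7, 3 and 5 of the 9 genes were called, and 1931, 841 and 1388 of all genes (61, 0 and 28 at an adjusted p under 0.05).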
